A study of Homo sapiens with 9 samples.

Results

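The genes described here encode splicing factors and the kinases that phosphorylate them in PANC-1 cells, an established line from a human pancreatic tumour, during nutrient and oxygen deprivation. They were taken by symbol, under a rule chosen with earlier results of these data known. The rule covered every symbol of the expression table that begins with HNRNP, SNRP or U2AF. It also covered every numbered SRSF, SF3A and SF3B symbol, CLK1 to CLK4 and SRPK1 to SRPK3. The rule took 75 of the 27800 symbols in the table: 12 SR proteins, 30 hnRNP symbols, 13 Sm and snRNP symbols, 9 SF3A and SF3B subunits, 4 U2AF symbols, 4 CLK kinases and 3 SRPK kinases. Of these, 67 reached 1 TPM (a length-corrected share of a library's transcripts, scaled to the same total in every library) in at least 3 of the 9 libraries and were tested.

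RNA was sequenced from 9 libraries, all headed WT in the expression table, 3 at each of day 0, day 2 and day 14 of culture in deprivation medium. The labels give the same growth medium for all 9 libraries, with lowered glucose, serum and amino acids, and list no further treatment. The state of the day 0 cells before collection is not described, and no undeprived libraries accompany day 2 or day 14, so time in culture and deprivation cannot be told apart. The labels also leave out whether replicates were separate cultures, so the p-values measure the spread between these libraries, which may be technical.

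Splicing removes introns from precursor messenger RNA in the spliceosome, which is assembled from small nuclear ribonucleoproteins (snRNPs). Sm proteins form the ring around the small nuclear RNAs, SF3A and SF3B are parts of the U2 snRNP that recognise the branch point, and the U2AF proteins bind the 3′ splice site. SR proteins mostly promote the use of exons and hnRNP proteins often oppose it. SR proteins work through domains rich in arginine and serine that SRPK kinases phosphorylate in the cytoplasm, which favours their import, and that CLK kinases phosphorylate in the nucleus.

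The promoters of 4 genes are shown as a description: CLK1 and CLK4, which rose, and SRPK1 and SNRPF, which fell. Whether promoter sequence bears on these changes was not tested. Each is the RefSeq sequence of GRCh38.p14 from 250 bases before to 50 bases after the gene's start, on the gene's own strand. Capitals mark matches, on either strand, to TGACG (the core of CREB and ATF sites), CACGTG (the E-box), CCGGAAG (an ETS site) and CCAAT (the NF-Y site).
CLK1: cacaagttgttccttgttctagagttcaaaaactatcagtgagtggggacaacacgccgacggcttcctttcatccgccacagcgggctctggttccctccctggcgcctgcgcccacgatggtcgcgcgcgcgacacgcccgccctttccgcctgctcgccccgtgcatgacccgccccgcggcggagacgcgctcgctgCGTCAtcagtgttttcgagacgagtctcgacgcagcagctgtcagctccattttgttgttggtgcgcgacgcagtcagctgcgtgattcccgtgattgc
CLK4: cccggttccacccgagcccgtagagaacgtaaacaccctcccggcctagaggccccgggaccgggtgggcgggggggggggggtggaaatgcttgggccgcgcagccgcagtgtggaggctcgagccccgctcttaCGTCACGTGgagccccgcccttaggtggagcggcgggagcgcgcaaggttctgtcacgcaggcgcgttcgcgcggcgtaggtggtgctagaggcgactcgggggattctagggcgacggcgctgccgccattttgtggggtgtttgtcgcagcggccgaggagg
SRPK1: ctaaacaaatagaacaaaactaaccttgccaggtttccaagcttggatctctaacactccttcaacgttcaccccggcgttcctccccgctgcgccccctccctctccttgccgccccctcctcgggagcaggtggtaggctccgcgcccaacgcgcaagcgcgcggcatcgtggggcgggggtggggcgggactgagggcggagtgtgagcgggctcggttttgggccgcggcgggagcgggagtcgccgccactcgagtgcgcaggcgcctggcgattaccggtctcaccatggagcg
SNRPF: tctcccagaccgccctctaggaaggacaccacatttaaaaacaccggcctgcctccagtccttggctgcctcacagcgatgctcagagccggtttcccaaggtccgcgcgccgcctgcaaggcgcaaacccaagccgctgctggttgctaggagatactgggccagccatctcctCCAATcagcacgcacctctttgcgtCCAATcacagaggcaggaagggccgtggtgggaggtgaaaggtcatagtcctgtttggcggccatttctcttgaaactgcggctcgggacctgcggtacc
CLK1 lies at chr2:200864609-200864908 (minus strand), CLK4 at chr5:178627001-178627300 (minus), SRPK1 at chr6:35921049-35921348 (minus) and SNRPF at chr12:95858702-95859001 (plus). The CLK1 window held 1 TGACG match, read on the reverse strand and beginning 49 bases before the start. In CLK4 a reverse TGACG match began 114 bases before the start and overlapped a CACGTG match beginning 111 bases before it. SNRPF held CCAAT matches at 75 and 50 bases before the start, and SRPK1 held none of the 4 motifs. Promoters were matched for 60 of the 67 tested members. TGACG was present in 24 of these 60 (40.0%) and in 25.0% of all 27305 promoters, among them 7 of the 12 members that rose in either comparison with day 0 and 7 of the 15 that fell and had a promoter entry. CCGGAAG was present in 19 of the 60 (31.7%) against 10.7% of all promoters, CACGTG in 10 (16.7%) against 7.43%, and CCAAT in 22 (36.7%) against 35.7%. Among the same 12 that rose and 15 that fell, CCGGAAG was present in 1 and 5, CACGTG in 3 and 2, and CCAAT in 4 and 6. The set of all promoters includes genes that were not tested here, and the promoters of all tested genes were not counted apart. The gaps therefore cannot be read as a trait of splicing genes. A match is a description of the letters and not a binding site.

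Of 6 epithelial markers, KRT8 (413 to 2250 TPM), KRT18 (334 to 1090 TPM) and KRT19 (174 to 939 TPM) were highest. EPCAM (25.5 to 109 TPM) overlapped CDH1 (8.24 to 35.5 TPM), with day 2 means of 29.3 and 32.4 TPM. KRT7 was at 4.42 to 8.71 TPM. The mesenchymal marker VIM was at 881 to 2530 TPM. The means at each day were not parallel, with KRT8 at 1870, 438 and 501 TPM and CDH1 at 17.2, 32.4 and 10.6 TPM at day 0, 2 and 14. Of 18 markers of fibroblast, blood, endothelial, acinar and islet cells, 17 stayed under 1 TPM in every library. DCN, CD3E, CPA1, INS and GCG were listed at 0. The fibroblast marker COL1A1 ranged from 8.29 to 72.6 TPM. The summed level of these 18 markers was 11.2 to 62.3 TPM at day 0, 57.6 to 73.9 TPM at day 2 and 10.6 to 14.6 TPM at day 14, and its part in the results was not tested. Because bulk RNA was measured, fewer cells expressing a gene and less RNA per cell cannot be told apart. In every library the 2 most abundant entries, the microRNA symbols MIR6723 and MIR4461, held 22.4% to 40.3% of all TPM.

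Day 0 replicate 2 stood apart from the other libraries. In it 11363 genes reached 1 TPM, and in the other libraries 13016 to 13868. Within the splicing genes it was not uniformly low: on the log2(TPM + 1) scale its difference from the mean of day 0 replicates 1 and 3 had a median of 1.03 over the 12 tested Sm and snRNP genes and −1.72 over the 9 SF3A and SF3B genes. SF3B6 was at 635 TPM in it and at 156 and 166 TPM in the other day 0 libraries, whereas SF3B4 was at 20.7 TPM against 124 and 130.3 TPM. Members with longer transcripts tended to be lower in this library: the Spearman correlation of the difference with the longest coding transcript in GENCODE 29 was −0.445 over 64 members and −0.569 over 12034 tested genes. With the median coding transcript, the measure taken first, it was −0.358 and −0.399. The longest transcript was adopted after those values were seen, on the view that short fragment models pull the median down, which was not tested. These points all come from 1 library and are a description. For genes described below, the value without this library is given where leaving it out changed a call or a direction or moved the printed change by over 1.5 times.

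**Figure D1:**
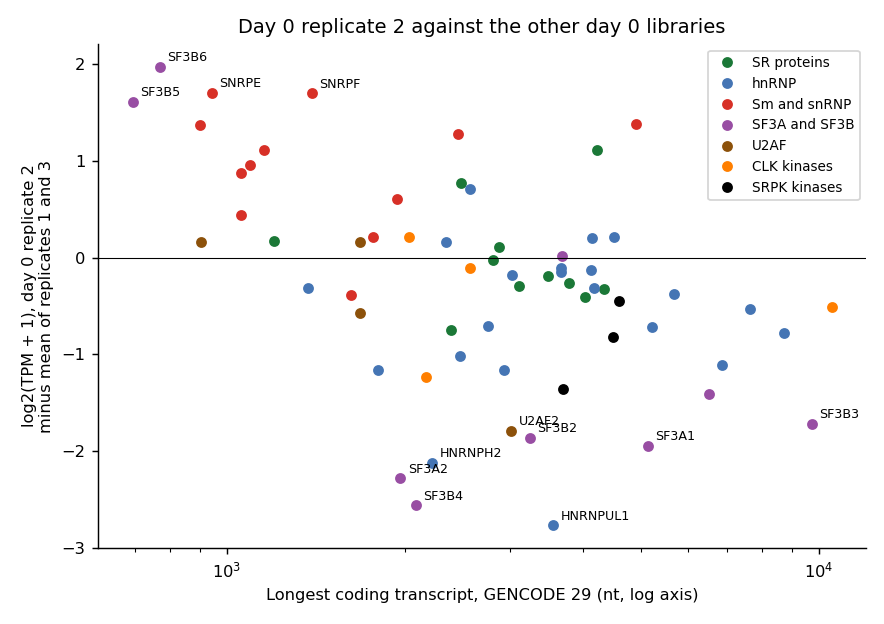
The horizontal axis gives the longest coding transcript of each member in nucleotides (log axis) and the vertical axis the log2(TPM + 1) level in day 0 replicate 2 minus the mean of day 0 replicates 1 and 3, with 1 point for each of 64 members coloured by role. The Sm and snRNP genes other than SNRPA (−0.38) lie above 0, as do SF3B5 and SF3B6, while SF3A2, SF3B4, HNRNPUL1 and HNRNPH2 lie below −2.

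The splicing genes moved in both directions. Against day 0, 9 of the 67 tested members rose and 16 fell at day 2, and 12 rose and 10 fell at day 14, at an adjusted p under 0.05 in limma on log2(TPM + 1) with Benjamini-Hochberg adjustment over 14144 genes. Among all tested genes 19.2% rose and 11.5% fell at day 2, against 13.4% and 23.9% of the members. At day 14, 27.5% of all genes rose and 6.72% fell, against 17.9% and 14.9% of the members. The median log2 change of the members was −0.01 at day 2 and 0.08 at day 14, and that of all tested genes 0.23 and 0.44. Without day 0 replicate 2 the members' medians were −0.11 and 0.03 and those of all genes 0.02 and 0.25. Both comparisons use the same day 0 libraries. The 3 libraries of day 2 lay above those of day 0 without overlap in 15 members and below in 22, where 33.4% and 17.4% of all genes did so. For day 14 the counts were 18 and 14, where 42.5% and 9.95% of all genes did so.

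At day 14 the balance of rises and falls depended on scaling, while at day 2 falls outnumbered rises under each scaling used. With quantile normalization falls also outnumbered rises among all genes at day 2 (19.9% and 18.3%), so the day 2 balance there is not particular to the members. With median-ratio scaling 12 members rose and 14 fell at day 2, beside 22.9% and 15.2% of all genes, and 6 rose and 15 fell at day 14, beside 19.8% and 14.1%. With quantile normalization the counts were 12 and 15 at day 2, beside 18.3% and 19.9% of all genes, and 8 and 13 at day 14, beside 17.1% and 17.4%. With TPM rescaled without the 2 most abundant entries 10 rose and 16 fell at day 2, beside 17.6% and 9.19% of all genes, and 8 rose and 11 fell at day 14, beside 19.3% and 6.42%. These scalings move the median of all genes at day 14 from 0.44 to 0.11 (median-ratio) and −0.01 (quantile). In the fit without day 0 replicate 2, 11 members rose and 26 fell at day 2, beside 24.7% and 23.6% of all genes (48.3% in all). At day 14 the same fit had 14 rises and 17 falls, beside 34.6% and 14.5% of all genes (49.1% in all). With a fit of only the 2 days compared, 7 members rose and 11 fell at day 2, beside 13.6% and 8.34% of all genes (22% in all), and 8 rose and 4 fell at day 14, beside 16.6% and 4.09% (20.7% in all).

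**Figure D2:**
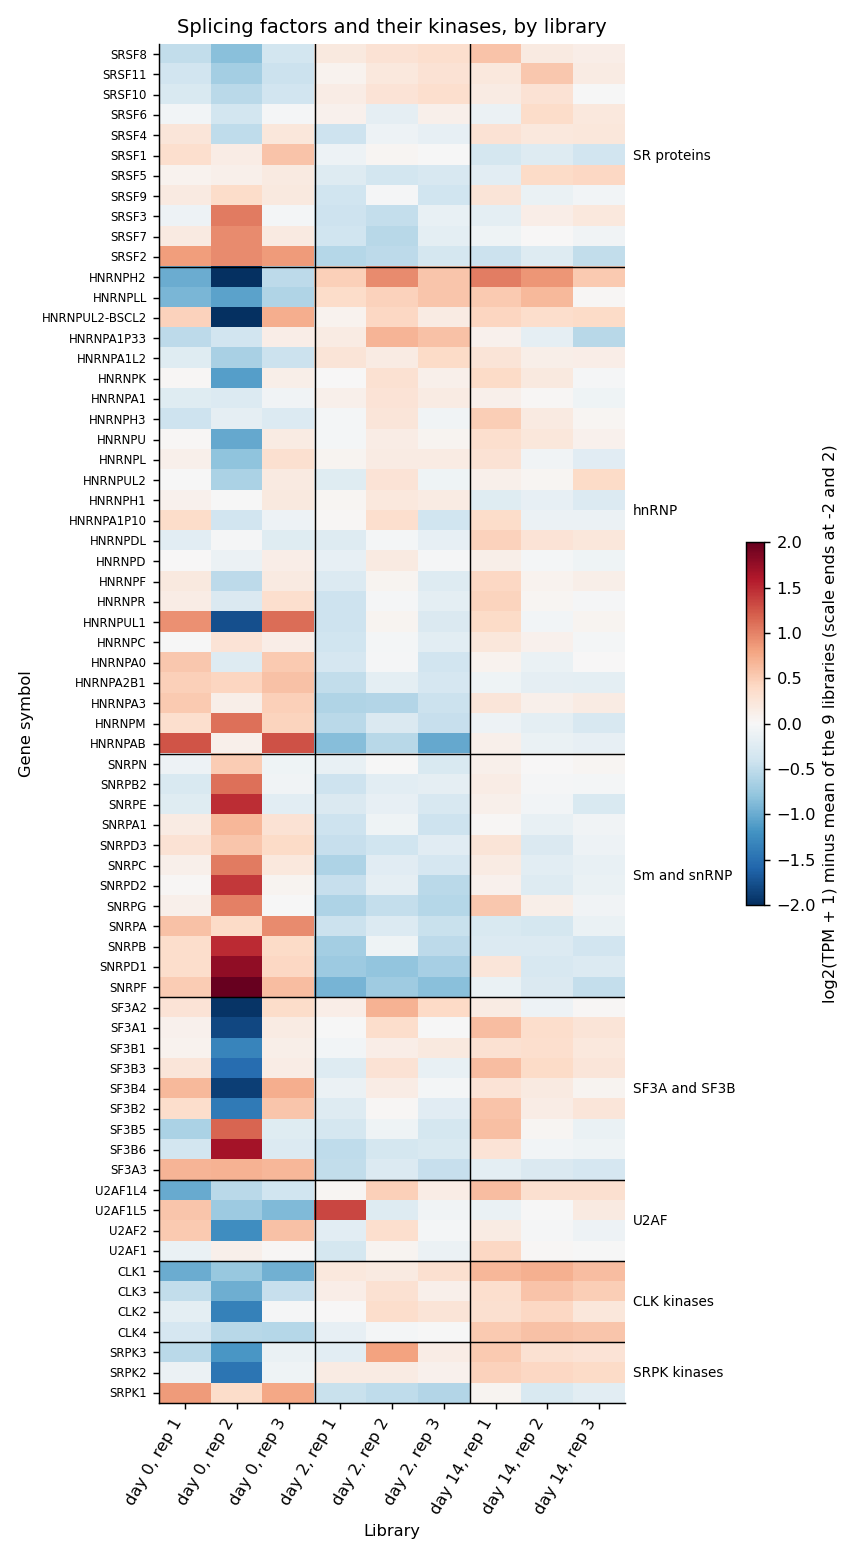
Each row is a tested splicing gene, grouped by role and ordered by its day 2 change, and each column a library; colour gives log2(TPM + 1) minus the gene's mean over the 9 libraries, limited to −2 and 2. Day 0 replicate 2 differs from its neighbours, with most Sm and snRNP genes high and 6 of 9 SF3A and SF3B genes low (SF3B5 and SF3B6 are high and SF3A3 is level), and the CLK genes are lower at day 0 than at day 2 and day 14.

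**Figure D3:**
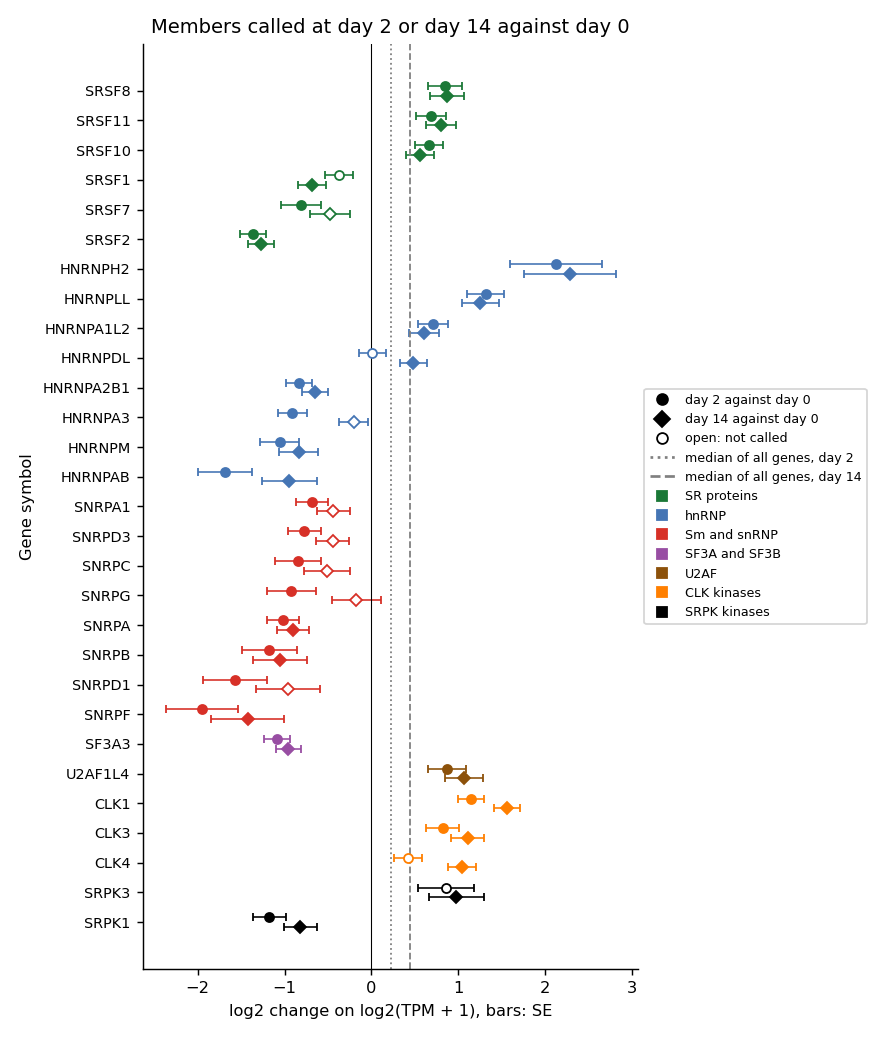
The horizontal axis gives the log2 change on log2(TPM + 1), with bars of 1 standard error, for the 29 members that passed the test at day 2 (circles) or day 14 (diamonds); open symbols did not pass, and grey lines mark the median of all genes. The 8 Sm and snRNP genes shown lie below 0, although SNRPG turns to 0.14 at day 14 without day 0 replicate 2, and the 3 CLK kinases shown lie above it.

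Of the 4 CLK kinases, 2 rose at day 2 and 3 at day 14, and none fell. Among all genes 19.2% rose at day 2 and 27.5% at day 14. CLK1 had the largest rise of the 4 at both times. CLK1 was at 14.8, 17.5 and 15.2 TPM at day 0, at 35.2, 34.5 and 38.2 TPM at day 2, and at 48.5, 50.2 and 46.8 TPM at day 14. Its groups did not overlap and it was among the genes that day 0 replicate 2 left almost untouched. It rose by 1.14 ± 0.15 (SE, log2) at day 2 (limma adjusted p = 0.00112) and by 1.56 ± 0.15 at day 14 (limma adjusted p = 0.000388), and no left-out library ended either call.

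CLK4, the nearest relative of CLK1, was at 5.46, 4.51 and 4.48 TPM at day 0, at 6.27, 6.92 and 7.04 TPM at day 2, and at 10.6, 11.2 and 10.9 TPM at day 14. All 3 days were separate, with day 14 highest. Its rise passed the test at day 14 (1.04 ± 0.16, limma adjusted p = 0.00238) and the change at day 2 was 0.42 (limma adjusted p = 0.0805), or 0.38 without day 0 replicate 2 (0.028). With quantile normalization the day 14 value of CLK4 was 0.47 (limma adjusted p = 0.126). CLK3 was at 22.0, 15.3 and 22.5 TPM at day 0, at 34.4, 38.7 and 33.6 TPM at day 2, and at 39.8, 46.7 and 44.3 TPM at day 14. It rose by 0.82 ± 0.19 at day 2 (limma adjusted p = 0.0126) and by 1.11 ± 0.19 at day 14 (limma adjusted p = 0.00357). Without day 2 replicate 2 its day 2 value was 0.76 (limma adjusted p = 0.0507). CLK2 had 12.7, 5.15 and 14.4 TPM at day 0 and 17.3 to 19.9 TPM at day 14, with changes of 0.73 and 0.84 that did not pass (limma adjusted p = 0.122 and 0.0756). Its day 2 change was 0.32 without day 0 replicate 2 (limma adjusted p = 0.0841). The day 14 change of CLK2 without day 0 replicate 2 was 0.43 (limma adjusted p = 0.0296), and without day 0 replicate 3 it was 1.09 (limma adjusted p = 0.0391).

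The SRPK kinases did not move together. SRPK1, the broadly expressed cytoplasmic kinase of SR proteins, was at 32.8, 23.1 and 31.0 TPM at day 0, at 12.8, 12.1 and 11.5 TPM at day 2, and at 18.3, 14.2 and 15.1 TPM at day 14. All day 2 and day 14 libraries were below all day 0 libraries. SRPK1 fell by 1.18 ± 0.19 at day 2 (limma adjusted p = 0.00286) and by 0.82 ± 0.19 at day 14 (limma adjusted p = 0.0122, and 0.0518 without day 14 replicate 2). SRPK2 was at 15.1, 5.33 and 15.5 TPM at day 0 and at 23.0, 22.2 and 21.7 TPM at day 14, a change of 0.97 ± 0.34 that did not pass (limma adjusted p = 0.0565). The SRPK2 value at day 14 was 0.51 without day 0 replicate 2 (limma adjusted p = 0.00304), and it also passed without day 0 replicate 1 (1.19, 0.0394) or replicate 3 (1.21, 0.0359). SRPK3, a kinase best known from muscle, stayed under 4 TPM throughout, and its rise of 0.98 ± 0.32 at day 14 (limma adjusted p = 0.0442) had an adjusted p between 0.0658 and 0.12 without any one of day 0 replicates 1 and 2, day 2 replicate 3 and the 3 day 14 libraries.

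**Figure D4:**
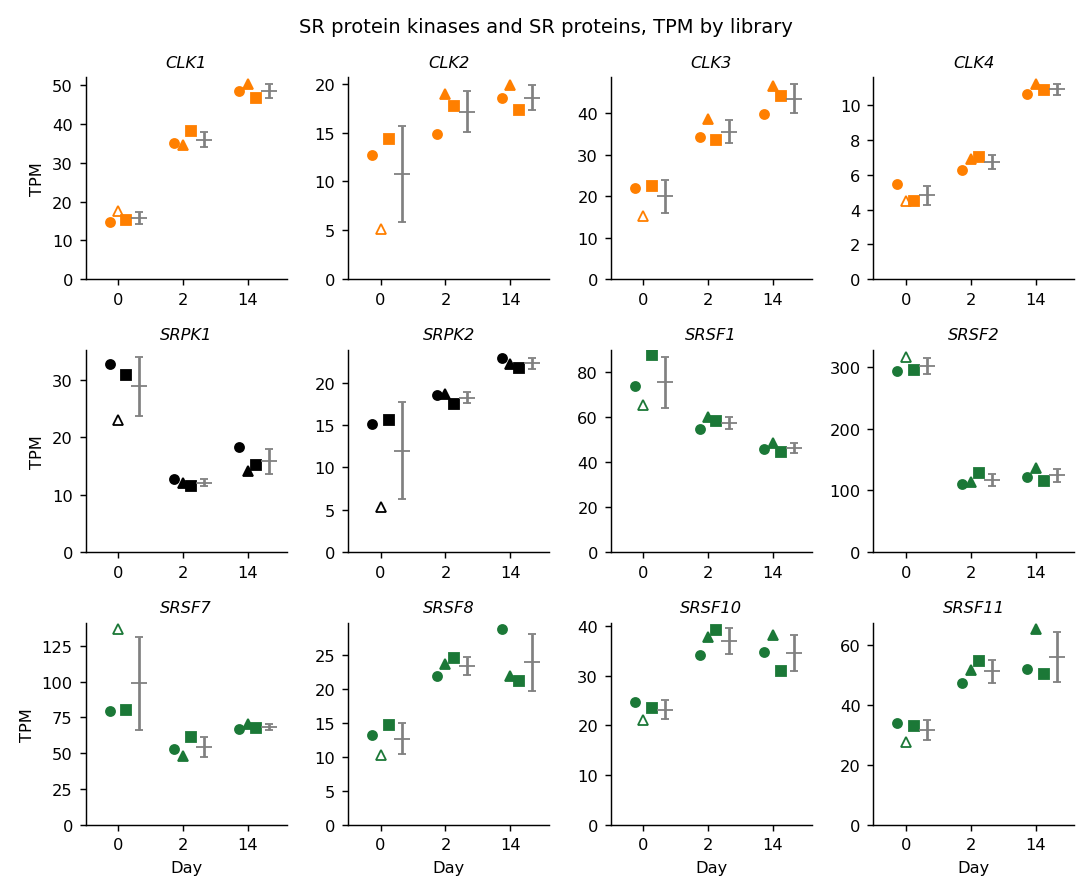
Each panel gives 1 gene, with TPM on the vertical axis from 0 and day on the horizontal axis; circles, triangles and squares are replicates 1, 2 and 3, the open triangle is day 0 replicate 2, and the grey bar is the mean ± SD of 3 libraries. CLK1 steps up from 14.8 to 17.5 TPM at day 0 to 46.8 to 50.2 TPM at day 14, while SRPK1 and SRSF2 step down at day 2.

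Of the 11 tested SR genes, 3 rose and 2 fell at each time, and SRSF12 never exceeded 0.254 TPM. The SR counts are 27.3% and 18.2%, beside 19.2% and 11.5% of all genes at day 2 and 27.5% and 6.72% at day 14. The day 2 counts were 3 rises and 5 falls without day 0 replicate 2, beside 24.7% and 23.6% of all genes. They were 1 and 1 without day 2 replicate 2 (11.8% and 8.78% of all genes). Without day 2 replicate 3 they were 0 and 1 (12.3% and 6.85%). SRSF2, which binds exonic enhancers and also acts in transcription elongation, had the largest fall. It was at 294, 317 and 295 TPM at day 0, at 109.8, 113 and 129 TPM at day 2, and at 121.5, 136 and 115.5 TPM at day 14. The day 0 libraries lay far above the other 6 and close to one another. SRSF2 fell by 1.36 ± 0.15 at day 2 (limma adjusted p = 0.000538) and by 1.28 ± 0.15 at day 14 (limma adjusted p = 0.000783), and no left-out library ended either call.

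SRSF1, the founding SR protein, was at 73.6, 65.1 and 87.4 TPM at day 0, at 54.5, 59.7 and 58.0 TPM at day 2, and at 45.7, 48.6 and 44.5 TPM at day 14. Its levels were lower at each later day without overlap. It fell by 0.68 ± 0.16 at day 14 (limma adjusted p = 0.0128), and the day 2 change was −0.38 (limma adjusted p = 0.107), or −0.48 without day 0 replicate 2 (limma adjusted p = 0.00928). SRSF7, a partner of SRSF3 in mRNA export, was at 79.8, 137 and 79.9 TPM at day 0 and at 53.3, 47.9 and 61.6 TPM at day 2. It fell by 0.81 ± 0.23 at day 2 (limma adjusted p = 0.0286), with adjusted p of 0.0859, 0.0971 and 0.0548 without day 2 replicate 1, 2 and 3. At day 14 its change was −0.48 (limma adjusted p = 0.137), or −0.22 without day 0 replicate 2 (0.16).

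The SR genes that rose were SRSF8, SRSF10 and SRSF11. SRSF8, a gene derived from an SRSF2 copy, was at 13.2, 10.2 and 14.6 TPM at day 0, at 22.0, 23.6 and 24.5 TPM at day 2, and at 28.8, 21.9 and 21.1 TPM at day 14. It rose by 0.84 ± 0.20 at day 2 (limma adjusted p = 0.013, and 0.0556 without day 2 replicate 3) and by 0.86 ± 0.20 at day 14 (limma adjusted p = 0.011, and 0.0601 with quantile normalization). SRSF10, which represses splicing when it loses its phosphates, was at 24.7, 21.0 and 23.6 TPM at day 0, at 34.1, 37.7 and 39.2 TPM at day 2, and at 34.8, 38.1 and 30.8 TPM at day 14. It rose by 0.66 ± 0.16 (limma adjusted p = 0.0157) and by 0.56 ± 0.16 (limma adjusted p = 0.0275). The SRSF10 call at day 2 was lost without day 2 replicate 2 (0.0552) or 3 (0.071), and the call at day 14 without any of 5 libraries: day 0 replicate 3, day 2 replicates 1 and 3, and day 14 replicates 1 and 2 (adjusted p from 0.0511 to 0.104). SRSF11 was at 34.1, 27.7 and 32.9 TPM at day 0, at 47.2, 51.7 and 54.9 TPM at day 2, and at 52.1, 65.6 and 50.3 TPM at day 14. It rose by 0.69 ± 0.17 (limma adjusted p = 0.0179, lost without day 2 replicate 2 at 0.0578 or 3 at 0.0759) and by 0.80 ± 0.17 (limma adjusted p = 0.00892). At day 14 the rises of SRSF10 and SRSF11 did not pass with median-ratio scaling (limma adjusted p = 0.495 and 0.123).

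The other 5 tested SR genes did not pass at either time. SRSF3 was at 110.2, 244 and 115 TPM at day 0, at 88.5, 84.5 and 106 TPM at day 2, and at 103, 129 and 136 TPM at day 14, with changes of −0.65 (limma adjusted p = 0.136) and −0.26 (0.532). Without the high day 0 replicate 2 the SRSF3 changes were −0.28 (limma adjusted p = 0.168) and 0.11 (0.561). SRSF9 was at 235, 267 and 238 TPM at day 0 and at 157, 204 and 157 TPM at day 2, a change of −0.52 (limma adjusted p = 0.0585, and 0.0474 without day 0 replicate 2). SRSF4 had a day 2 change of −0.22 (limma adjusted p = 0.488), which was −0.47 without day 0 replicate 2 (limma adjusted p = 0.0132). SRSF5 was at 64.5 to 69.2 TPM at day 0 and at 47.0 to 50.9 TPM at day 2, with changes of −0.43 (limma adjusted p = 0.12) and 0.08 (0.766). SRSF6 had changes of 0.16 and 0.31 (limma adjusted p = 0.559 and 0.235), or 0.05 and 0.20 without day 0 replicate 2 (0.834 and 0.341).

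SR genes are known to make transcripts that carry early stop codons and are removed by nonsense-mediated decay. In GENCODE 29 all 11 tested SR genes had at least 1 transcript of that class, as did 41 of the 67 tested members (61.2%) and 38.3% of 13492 tested genes in that annotation. CLK1 had 2 such transcripts and 8 with a retained intron among 15, and CLK4 had 3 and 7 among 15. The deposited TPM is given per gene, so which transcripts carried each change was not measured here.

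The hnRNP genes held both the largest rise and some of the largest falls. Of 24 tested, 3 rose and 4 fell at day 2 (12.5% and 16.7%), beside 19.2% and 11.5% of all genes. At day 14, 4 rose and 3 fell (16.7% and 12.5%), beside 27.5% and 6.72%. When day 0 replicate 2 was left out, 4 rose and 7 fell at day 2, beside 24.7% and 23.6% of all genes. At day 14 that fit had 5 rises and 7 falls, beside 34.6% and 14.5%. HNRNPH2, a relative of HNRNPH1 that binds G-rich sequence, was at 14.9, 3.27 and 20.9 TPM at day 0, at 42.8, 59.8 and 45.3 TPM at day 2, and at 63.3, 57.1 and 44.5 TPM at day 14. It rose by 2.13 ± 0.53 at day 2 (limma adjusted p = 0.017, and 0.06 without day 2 replicate 2) and by 2.28 ± 0.53 at day 14 (limma adjusted p = 0.012). Without day 0 replicate 2, where HNRNPH2 was lowest, the rises were 1.42 (limma adjusted p = 0.00165) and 1.57 (limma adjusted p = 0.00109). HNRNPH1 itself stayed between 105 and 148 TPM with changes of 0.05 and −0.32 (limma adjusted p = 0.801 and 0.118). The HNRNPH1 values without day 0 replicate 2 were 0.0041 and −0.36 (limma adjusted p = 0.978 and 0.0179).

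HNRNPLL, known for the switch of CD45 exons in lymphocytes, was at 15.3, 13.6 and 19.2 TPM at day 0, at 38.6, 41.0 and 43.8 TPM at day 2, and at 42.7, 46.7 and 30.2 TPM at day 14. It rose by 1.32 ± 0.21 (limma adjusted p = 0.0028) and by 1.25 ± 0.21 (limma adjusted p = 0.00344), and every day 2 and day 14 library was above every day 0 library. HNRNPDL was at 47.4 to 55.4 TPM at day 0, at 46.9 to 55.0 TPM at day 2 and at 77.7, 68.6 and 66.4 TPM at day 14. Its rise of 0.48 ± 0.16 at day 14 (limma adjusted p = 0.0419) did not hold with median-ratio scaling (0.08, 0.821). It was lost without any 1 library except day 0 replicate 2, with adjusted p from 0.0604 to 0.113. HNRNPA1L2, a near copy of HNRNPA1 whose reads may be shared with it, stayed under 5 TPM. Its rises of 0.71 and 0.61 (limma adjusted p = 0.0152 and 0.0256) ended with quantile normalization (0.29 and −0.02) and without any of several libraries: day 2 replicate 1 (0.0545) or 3 (0.0652) at day 2, and day 0 replicate 3 (0.0546) or day 14 replicate 1 (0.0755), 2 (0.0652) or 3 (0.0674) at day 14.

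HNRNPAB, an RNA-binding protein linked to mRNA transport, was at 271, 121 and 273 TPM at day 0, at 62.3, 76.1 and 55.0 TPM at day 2, and at 121, 102 and 99.98 TPM at day 14. Day 2 was below day 0 in every library, while day 14 met the low day 0 replicate 2. HNRNPAB fell by 1.69 ± 0.32 at day 2 (limma adjusted p = 0.00514), or by 2.07 without day 0 replicate 2. Its fall of 0.95 ± 0.32 at day 14 (limma adjusted p = 0.0469) was 1.34 without that library, and leaving out any other single library ended the call, with adjusted p from 0.0626 to 0.121. HNRNPM, a factor that binds GU-rich introns, was at 226, 387 and 245 TPM at day 0, at 123, 147 and 130.4 TPM at day 2, and at 166, 157 and 143 TPM at day 14. It fell by 1.06 ± 0.22 (limma adjusted p = 0.0082) and by 0.84 ± 0.22 (limma adjusted p = 0.0196, lost without day 14 replicate 2 at 0.0578 or 3 at 0.0683).

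HNRNPA2B1, an abundant core hnRNP protein, was at 324, 314 and 351 TPM at day 0, at 166, 203 and 184 TPM at day 2, and at 219.8, 205 and 204 TPM at day 14. It fell by 0.84 ± 0.15 (limma adjusted p = 0.00424) and by 0.65 ± 0.15 (limma adjusted p = 0.0117) with no overlap between day 0 and later days. HNRNPA3, its close relative, was at 90.5, 68.5 and 88.2 TPM at day 0, at 41.0, 41.4 and 46.7 TPM at day 2, and at 74.2, 67.6 and 70.7 TPM at day 14. It fell by 0.91 ± 0.17 at day 2 (limma adjusted p = 0.00447), and its day 14 value was −0.21 (limma adjusted p = 0.355), or −0.33 without day 0 replicate 2 (limma adjusted p = 0.0282).

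HNRNPA1, the most abundant hnRNP here by TPM, was at 426, 413 and 479 TPM at day 0, at 537, 606 and 561 TPM at day 2, and at 537, 511 and 474 TPM at day 14. Its changes of 0.37 and 0.21 did not pass (limma adjusted p = 0.0929 and 0.303), and the day 2 change was 0.33 without day 0 replicate 2 (limma adjusted p = 0.0376). HNRNPU, a nuclear scaffold protein, was at 114, 55.0 and 126 TPM at day 0 and between 109.9 and 143 TPM later, with changes of 0.33 and 0.50 (limma adjusted p = 0.407 and 0.212). Without the low day 0 replicate 2 the HNRNPU values were −0.04 and 0.13 (limma adjusted p = 0.815 and 0.394). HNRNPUL1 shows how far 1 library set the result. It was at 104, 15.4 and 118 TPM at day 0 and at 40.5, 56.4 and 44.1 TPM at day 2, a change of −0.31 (limma adjusted p = 0.742) that became −1.23 without day 0 replicate 2 (limma adjusted p = 0.00144). Leaving out that library also brought HNRNPA0 to −0.78 at day 2 (limma adjusted p = 0.00244). HNRNPUL2-BSCL2 is a readthrough of neighbouring genes, and the pseudogenes HNRNPA1P10 and HNRNPA1P33 share sequence with HNRNPA1, so their levels are uncertain.

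Of the 12 tested Sm and snRNP genes, 8 fell at day 2 and none rose, with a median change of −0.87, and 3 fell at day 14, with a median of −0.48. These falls are 66.7% and 25% of the 12, beside 11.5% and 6.72% of all genes. Without day 0 replicate 2, in which most of the Sm and snRNP genes were high, 9 fell at day 2 and 4 at day 14, and the medians were −0.58 and −0.26. In that fit 23.6% and 14.5% of all genes fell. All 12 estimates were below 0 at day 2 with and without that library. At day 14 all 12 were below 0 with it, and 4 turned above 0 without it: SNRPB2 (0.21), SNRPE (0.14), SNRPG (0.14) and SNRPN (0.15), with adjusted p from 0.204 to 0.52. Without a single day 2 library the day 2 count was 3 (replicate 1), 5 (replicate 2) or 4 (replicate 3). The shares of all genes that fell in these fits were 6.74%, 8.78% and 6.85%. Without any 1 day 14 library the day 14 count was 1, beside falls of 4.46% to 5.64% of all genes. A fit of only the 2 days compared gave falls of 4 and 1 at day 2 and day 14, beside 8.34% and 4.09% of all genes. Median-ratio scaling gave 5 and 5 (15.2% and 14.1%), quantile normalization 8 and 6 (19.9% and 17.4%), and a replicate block 4 and 3 (8.67% and 5.18%). The summed level of the Sm and snRNP genes was 1414.8, 3173.7 and 1468.5 TPM at day 0, 838.9, 1049.8 and 873.2 TPM at day 2, and 1282.9, 1093.2 and 1065.8 TPM at day 14.

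SNRPF, a subunit of the Sm ring, had the largest fall. It was at 124, 421 and 134 TPM at day 0, at 45.1, 53.1 and 48.4 TPM at day 2, and at 79.6, 71.1 and 62.2 TPM at day 14. The day 0 libraries were all higher, and day 14 lay between day 0 and day 2. SNRPF fell by 1.95 ± 0.42 at day 2 (limma adjusted p = 0.0091) and by 1.43 ± 0.42 at day 14 (limma adjusted p = 0.0295). Leaving out day 0 replicate 2 made the falls smaller, −1.38 (limma adjusted p = 0.000226) and −0.86 (limma adjusted p = 0.00159). The day 14 call of SNRPF was lost without day 14 replicate 1 (0.0621), 2 (0.0764) or 3 (0.0886).

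SNRPD1, another ring subunit, was at 56.0, 152 and 58.9 TPM at day 0, at 26.1, 25.0 and 27.2 TPM at day 2, and at 52.2, 35.0 and 36.1 TPM at day 14. It fell by 1.57 ± 0.37 at day 2 (limma adjusted p = 0.0129), and its day 14 change was −0.96 (limma adjusted p = 0.0715). The day 14 change of SNRPD1 without day 0 replicate 2 was −0.50 (limma adjusted p = 0.0458), and without replicate 1 it was −1.21 (0.0425). SNRPB, which encodes the ring proteins SmB and SmB′, was at 443, 970.0 and 451.5 TPM at day 0, at 216, 325 and 239 TPM at day 2, and at 284, 287 and 263 TPM at day 14. It fell by 1.17 ± 0.31 (limma adjusted p = 0.022, lost without day 2 replicate 1 at 0.0817 or 3 at 0.0735) and by 1.06 ± 0.31 (limma adjusted p = 0.0302, lost without day 14 replicate 1 at 0.0726, 2 at 0.0752 or 3 at 0.0864). The day 14 change of SNRPB was −0.69 without day 0 replicate 2 (limma adjusted p = 0.012). SNRPD3 fell by 0.77 ± 0.19 at day 2 (limma adjusted p = 0.0162, lost without day 2 replicate 1 at 0.0678 or 2 at 0.0556), from 27.6, 33.4 and 29.5 TPM to 16.02, 16.7 and 18.9 TPM. SNRPG was at 168, 316 and 157 TPM at day 0, at 102, 113 and 106 TPM at day 2, and at 228, 170.0 and 149 TPM at day 14. It fell by 0.92 ± 0.28 at day 2 (limma adjusted p = 0.0385), with adjusted p from 0.0514 to 0.11 without any of the 3 day 2 libraries or day 14 replicate 2 or 3. Without day 0 replicate 2 the SNRPG value at day 2 was −0.60 (limma adjusted p = 0.023).

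Among the proteins particular to one snRNP, SNRPA of the U1 snRNP was at 55.6, 47.9 and 71.0 TPM at day 0, at 26.9, 30.2 and 26.7 TPM at day 2, and at 29.4, 28.6 and 33.2 TPM at day 14. SNRPA fell by 1.02 ± 0.18 (limma adjusted p = 0.0045) and by 0.90 ± 0.18 (limma adjusted p = 0.0073), and here day 0 replicate 2 was the lowest of its day. SNRPC, also of the U1 snRNP, fell by 0.84 ± 0.27 at day 2 (limma adjusted p = 0.0414), with adjusted p from 0.051 to 0.136 without any 1 of the 6 later libraries. Its day 2 value was −0.55 without day 0 replicate 2 (limma adjusted p = 0.0234). SNRPA1 of the U2 snRNP fell by 0.68 ± 0.19 at day 2 (limma adjusted p = 0.0252, lost without day 2 replicate 1 at 0.0956 or 3 at 0.0943). SNRPB2, SNRPD2, SNRPE and SNRPN did not pass at either time. SNRPN, an imprinted homologue of SNRPB that shares its locus with SNURF, was at 67.8, 104 and 68.4 TPM at day 0, at 65.7, 72.4 and 59.1 TPM at day 2, and at 78.7, 73.2 and 75.0 TPM at day 14. Its changes were −0.26 and −0.05 (limma adjusted p = 0.351 and 0.85), or −0.06 and 0.15 without day 0 replicate 2 (0.704 and 0.291). SNRPD2 had a change of −0.89 at day 2 (limma adjusted p = 0.0864), and of −0.44 without day 0 replicate 2 (limma adjusted p = 0.0408).

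**Figure D5:**
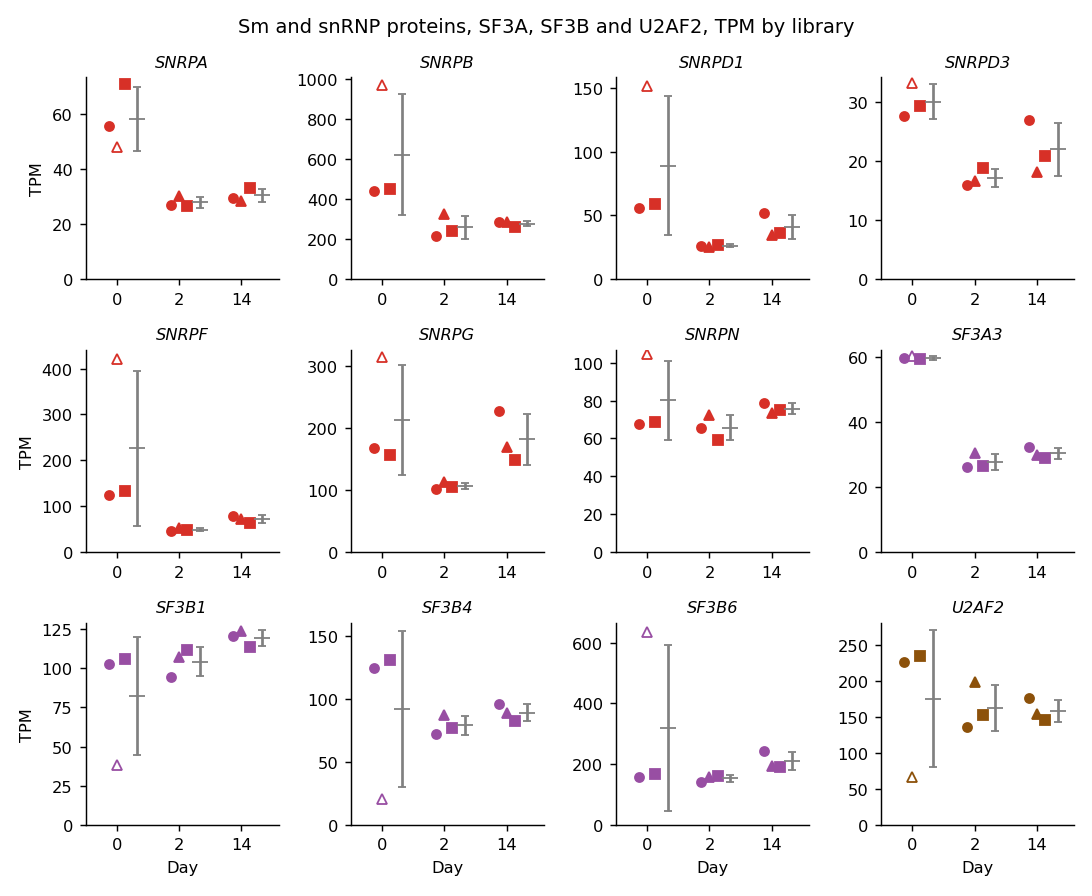
Each panel gives 1 gene, with TPM on the vertical axis from 0 and day on the horizontal axis; circles, triangles and squares are replicates 1, 2 and 3, the open triangle is day 0 replicate 2, and the grey bar is the mean ± SD of 3 libraries. In SNRPB, SNRPD1 and SNRPF the open triangle is far above the other day 0 libraries, in SF3B1, SF3B4 and U2AF2 it is far below them, and in SF3A3 all 3 day 0 libraries lie near 60 TPM.

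Of the SF3A and SF3B subunits, only SF3A3 passed the test, and it fell at both times. SF3A3, which bridges the SF3A complex to the U2 snRNP, was at 59.7, 60.4 and 59.4 TPM at day 0, at 26.1, 30.5 and 26.6 TPM at day 2, and at 32.3, 30.0 and 28.9 TPM at day 14. Day 0 replicate 2 was level with the others for this gene. SF3A3 fell by 1.08 ± 0.15 at day 2 (limma adjusted p = 0.00126) and by 0.95 ± 0.15 at day 14 (limma adjusted p = 0.00232). SF3B1, the branch point subunit often mutated in blood cancers, was at 103, 38.5 and 106 TPM at day 0, at 94.2, 107 and 112 TPM at day 2, and at 121, 124 and 113 TPM at day 14, with changes of 0.47 and 0.66 (limma adjusted p = 0.332 and 0.168). Without the low day 0 replicate 2 the SF3B1 values were −0.0024 and 0.19 (limma adjusted p = 0.989 and 0.164). In the fit without day 0 replicate 2, SF3B2 fell at day 2 (−0.61, limma adjusted p = 0.0151) and SF3B4 fell at both times (−0.69, 0.00254, and −0.51, 0.00889).

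Among the U2AF genes, U2AF1L4 rose while the main subunits did not pass. U2AF1L4, a relative of U2AF1, was at 17.98, 25.2 and 28.1 TPM at day 0, at 38.3, 52.2 and 41.2 TPM at day 2, and at 57.8, 46.4 and 46.7 TPM at day 14. It rose by 0.87 ± 0.22 (limma adjusted p = 0.0172, lost without day 2 replicate 2 at 0.0672 or 3 at 0.0507) and by 1.07 ± 0.22 (limma adjusted p = 0.0071, and 0.0737 with median-ratio scaling). U2AF2, the large subunit that binds the polypyrimidine tract, was at 226, 65.8 and 235 TPM at day 0, at 136, 198 and 153 TPM at day 2, and at 176, 154 and 145 TPM at day 14. Its changes were 0.08 and 0.05 (limma adjusted p = 0.91 and 0.931), and without day 0 replicate 2 they were −0.52 and −0.54 (limma adjusted p = 0.036 and 0.0305). U2AF1, the small subunit that reads the AG of the splice site, had changes of −0.14 and 0.15 (limma adjusted p = 0.598 and 0.56), the first being −0.08 without day 0 replicate 2 (0.718). U2AF1L5 is a near-identical copy of U2AF1, and how reads were divided between them is uncertain.

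Between day 14 and day 2 no member passed the test in limma, and 0.417% of all tested genes did (0.212% higher and 0.205% lower). At an unadjusted p under 0.05 there were 9 members (13.4%), where 18.1% of all genes were. The 3 libraries of day 14 lay above those of day 2 without overlap in 23 members and below in 3, where 36.8% and 7% of all genes did so. CLK1 and CLK4 differed by 0.42 and 0.62 (limma adjusted p = 0.192 and 0.109), HNRNPA3 by 0.71 (0.0961) and SNRPG by 0.75 (0.219). Without day 0 replicate 2, which enters this comparison through the shared estimate of the spread, 12 members were higher and 1 was lower, beside 23.5% and 3.86% of all genes (27.4% in all). CLK1 (limma adjusted p = 0.0155), CLK4 (0.00986), HNRNPA3 (0.00603), SNRPF (0.0194) and SNRPG (0.0167) were among the 12, and HNRNPH1 was the lower one (0.0238). With a fit of only these 2 days 8 members were higher and 1 lower, beside 15.1% and 2.69% of all genes (17.8% in all).

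The wider splicing machinery, a list of 106 other spliceosome, assembly and regulator genes of which 105 were tested, had 10 rises and 20 falls at day 2 and 16 rises and 7 falls at day 14. The shares called were 28.6% and 21.9%, beside 30.7% and 34.2% of all tested genes. Among 31 genes of the snRNPs and the tri-snRNP, minor spliceosome included, 11 fell and none rose at day 2, and 4 fell and 3 rose at day 14. Of 8 genes of the SMN complex, which loads Sm proteins on small nuclear RNA, 5 fell at day 2 and 2 at day 14. Among all tested genes 11.5% fell at day 2 and 6.72% at day 14. In a fit of only day 0 and day 2 the falls were 7 of 31 and 3 of 8, beside 8.34% of all genes. PPIH, a cyclophilin of the tri-snRNP, was at 65.4, 135 and 66.7 TPM at day 0, at 8.62, 11.8 and 11.2 TPM at day 2, and at 22.6, 17.9 and 22.4 TPM at day 14, falls of 2.89 (limma adjusted p = 0.000377) and 1.96 (0.00202). GEMIN6 of the SMN complex fell by 2.17 (limma adjusted p = 0.00191) and by 1.88 (0.00357), and SNRNP25 of the minor spliceosome fell by 2.02 (0.00348) and fell by 1.49 (0.0117).

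Rises in this list included SLU7, a second-step splicing factor, and RBM4, an RNA-binding regulator of exon choice. SLU7 rose by 1.47 (limma adjusted p = 0.00163) and by 1.82 (0.000763), and RBM4 by 1.53 (0.00143) and by 1.63 (0.00123). QKI rose by 1.55 at day 2 (limma adjusted p = 0.0105), and CWC22 by 1.54 at day 14 (0.00239). Without day 0 replicate 2 the list had 13 rises and 38 falls at day 2, beside 24.7% and 23.6% of all genes, and 29 rises and 19 falls at day 14, beside 34.6% and 14.5%.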

How the data were processed

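Expression was measured by sequencing total RNA of 9 PANC-1 libraries, 3 a day. The authors deposited 1 table of TPM values per gene symbol, made with Salmon and hg19 per the submitters' processing notes. Versions, annotation and read depth are not given in the sources used here, so no counting interval is given. Columns were matched to samples by name, and 0 were left unmapped. The 14144 genes that reached 1 TPM in 3 or more libraries were fitted on log2(TPM + 1) in limma 3.58.1 (R 4.3.3), with an intensity trend and all 9 libraries in 1 fit. Tests were two-sided, with Benjamini-Hochberg adjustment over all genes tested at 0.05. Changes on this scale understate those of low genes. A per-gene exact permutation test of 3 against 3 cannot go below 0.1 and was not used.

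The members and lists were chosen with earlier results of these data known. Full statistics went to the 8 largest called rises and falls of each comparison with a mean of at least 5 TPM in the higher group, and to a set list of SR, kinase and core genes. Other members are given by value, and 3 rises and 3 falls come from the list of other splicing genes. Those singled out for their values in day 0 replicate 2 (such as HNRNPUL1, HNRNPA0, SF3B2 and SF3B4) were chosen after seeing them.

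The 18 other settings covered pseudocounts, filters, scalings, a replicate block, no trend, a fit of the 2 days compared and each library left out. Rescaling without the 2 most abundant entries and limma array weights were added after seeing the data. On simulated data for day 2 against day 0 (14144 genes), 26 of 100 2-fold and 72 of 100 4-fold changes were recovered, with 6 false among 104 calls. No other genes were changed in the simulation, while 30.7% of all tested genes were called in the data. The adjustment was therefore stricter there, and these rates do not give those of the reported test. Transcript lengths and classes came from GENCODE 29 and promoters from RefSeq (GRCh38.p14), matched by symbol.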

Additional observations from a re-analysis of the deposited data

How the results depend on the processing

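Over 105 results for named members and 20 alternatives, 1889 of 2097 values kept their direction and their side of the threshold. A further 71 that passed in neither fit turned direction, 77 lost the call, 56 gained one and 4 reversed with a call. The last were U2AF2 without day 0 replicate 2 (−0.52 at day 2 and −0.54 at day 14, where leaving out each other library in turn gave up to 0.39 and 0.37) and with array weights (−0.62 and −0.59). For day 2 against day 0, the count of members called higher ranged from 4 to 11 and of those called lower from 10 to 26 with 1 library left out. Over the same fits 11.8% to 24.7% of all genes were higher and 6.74% to 23.6% lower. Leaving out day 2 replicate 2 or 3 gave 4 higher, leaving out day 2 replicate 1 gave 10 lower, leaving out day 0 replicate 2 gave 26 lower, and array weights gave 30 lower (33% of all genes were lower). For day 14 against day 0 the ranges were 8 to 14 higher and 5 to 17 lower, the lowest counts (5 and 6) coming from leaving out day 14 replicate 2 and 3, and the highest (17) from leaving out day 0 replicate 2. Of all genes 18% to 34.6% were higher and 4.46% to 14.5% lower over the fits with 1 library left out. Median-ratio scaling gave 6 higher, a fit of only the 2 days compared 4 lower, and array weights 20 lower (19.7% of all genes). For day 14 against day 2 the ranges were 0 to 12 higher and 0 to 1 lower, beside 0% to 23.5% and 0% to 3.86% of all genes. The fit of only those days gave 8 higher and 1 lower, and array weights 19 higher and 2 lower (31.2% and 4.56% of all genes). The cause of these changes was not tested.

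Same-numbered libraries did not deviate together (correlations from −0.079 to 0.015), so the replicate numbers were not taken as pairs. With a replicate block 7 members were higher and 11 lower at day 2, beside 14.6% and 8.67% of all genes. At day 14 the counts were 8 and 9, beside 21.5% and 5.18%. For day 14 against day 2 they were 0 and 0, beside 0.00707% and 0.00707%. With the block 6 calls of named members were lost. Depth is unknown for TPM, so what read depth limits could not be computed. The 3 libraries a day and the spread at day 0 limit which changes could be called.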
